A study of Mus musculus with 12 samples.

Results

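Messenger and other RNA of 2 subsets of conventional dendritic cells (DCs) from the gut of control mice was compared by bulk RNA-seq, in 6 of the 12 samples of the series. DCs of the wild-type group (strain given as a mixed background) were sorted as CD103+CD11b- cells (CD103+ DCs hereafter, n = 3) and as CD103-CD11b+ cells (CD11b+ DCs hereafter, n = 3) from a gate of CD45+CD64-CD11c+MHC-II+ cells. The other 6 samples were the same 2 subsets from Cbfb F/F: CD11c-Cre mice (cKO, n = 3 each), in which Cre driven by CD11c removes Cbfβ, the shared partner of the RUNX transcription factors; the study describes leak of this Cre into T cells, and cKO values are given here only beside those of control mice. The samples of a group came from different mice, and no age is tied to these libraries in the sources used here, although the study's text places its analyses of gut DC differentiation in young mice. Gut DCs positive for both CD103 and CD11b were not among the sorted cells, so the comparison covers 2 of the subsets of this tissue.

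Conventional DCs fall into cDC1s, which depend on the transcription factors IRF8 and BATF3, take up dead cells and present their antigens to CD8 T cells, and cDC2s, which lean on IRF4 and on Notch2 or KLF4 and mainly prime CD4 T cells. In the intestine cDC1s are CD103+CD11b-, while CD11b+ DCs lacking CD103 are a mixed population that overlaps in markers with macrophages. The comparison asks what separates these 2 subsets when Cbfβ is intact.

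Control libraries held 2902626 to 5863484 counts on genes, and 61.3 to 66.6% of the counted reads did not fall on a single gene. Levels are given as counts per 1000000 counts on genes after TMM scaling (CPM), in the order of replicates 1, 2 and 3, and 3 counts correspond to 0.48 to 1.05 CPM in a library. A log2 fold change is CD11b+ over CD103+ DCs, given ± its standard error, and a gene was called at a Benjamini-Hochberg adjusted p under 0.05 and a fold change over 1.3. CD103+ replicate 3 and CD11b+ replicate 2 stood apart from their groups in marker sums of other cell types, as described with those markers, and Xist and Y-linked genes showed replicates 1 and 2 of both subsets to be from females and replicate 3 from males. CD103+ replicates 1 and 2 (correlation of log2 CPM 0.982, chi-square per degree of freedom 2.34) were closer than any other 2 control libraries of a subset. The next pair was CD103+ replicates 1 and 3 (0.946 and 10.4). Why replicates 1 and 2 were so close was not tested.

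The sort was visible in the RNA. Itgae, which encodes CD103, was at 918, 798 and 609.8 CPM in CD103+ DCs and at 277, 134 and 146 CPM in CD11b+ DCs. Itgam, which encodes CD11b, was at 4.89, 3.72 and 4.48 CPM in CD103+ DCs and at 76.7, 101 and 87.4 CPM in CD11b+ DCs. Both genes therefore followed their gates in all 6 samples, although 68.7% of the Itgam exon length is shared with the overlapping gene model Gm49368, from which the unstranded counting could not tell it apart. Itgax, which encodes CD11c, was similar in level at 886, 695 and 531 against 709.8, 621 and 694 CPM (log2 fold change -0.06 ± 0.22, adjusted p = 0.877).

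Upstream sequence is printed for 6 genes that separated the subsets and hold the letters described here, as examples of them. Other genes of the main contrasts (Xcr1, Clec9a, Tlr3, Irf8 and Itgam) held neither kind of match and are not printed. Tlr11 and Gpr141b were high in CD103+ DCs and Gbp3 and Oas1a in CD11b+ DCs, and each holds a pair of GAAA letters 2 bases apart (the GAAA pair hereafter), the core letters bound by interferon-activated factors and by IRF8, within 250 bases before its start. Ly75 (CD103+ DCs) and Cd101 (CD11b+ DCs) hold TGTGGT, the letters bound by RUNX proteins. The sequences are from RefSeq on GRCm38.p6, 5′ to 3′ on the gene's strand, with the matching letters, on either strand, in capitals. They lie at chr14:50357747-50357846 (+ strand, Tlr11), chr13:19732952-19733008 (- strand, Gpr141b), chr3:142559954-142560043 (+ strand, Gbp3), chr5:120907526-120907590 (- strand, Oas1a), chr2:60383423-60383518 (- strand, Ly75) and chr3:101029554-101029647 (- strand, Cd101).
Tlr11: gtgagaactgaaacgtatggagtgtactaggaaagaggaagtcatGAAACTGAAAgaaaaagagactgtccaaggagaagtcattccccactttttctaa
Gpr141b: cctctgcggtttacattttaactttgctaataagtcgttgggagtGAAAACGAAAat
Gbp3: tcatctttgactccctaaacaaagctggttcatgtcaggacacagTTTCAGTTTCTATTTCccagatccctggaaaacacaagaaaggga
Oas1a: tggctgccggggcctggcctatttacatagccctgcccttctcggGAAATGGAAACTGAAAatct
Ly75: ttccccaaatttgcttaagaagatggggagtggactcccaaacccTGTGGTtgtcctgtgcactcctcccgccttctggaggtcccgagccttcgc
Cd101: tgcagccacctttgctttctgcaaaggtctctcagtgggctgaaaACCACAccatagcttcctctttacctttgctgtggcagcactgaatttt
The matches in Gbp3 and Oas1a are 2 overlapping copies, and the capitals of Gbp3 and Cd101 are matches on the opposite strand. Both strands were searched for the first RefSeq start listed for each gene, for 12284 tested genes. The GAAA pair was in 2.76% of all these promoters, in 58.3% (14 of 24) of those of all interferon-stimulated genes tested and 66.7% (8 of 12) of those called higher in CD11b+ DCs, in 2 of 15 of called cDC1 identity genes and in 0 of 12 of called cDC2 identity genes. TGTGGT was in 11.3% of all promoters, in 4 of 15 of called cDC1 genes and in 4 of 12 of called cDC2 genes, and in 17.9% of promoters of genes over 5-fold higher in CD103+ DCs against 10.3% of those over 5-fold higher in CD11b+ DCs. Of the other 3 motifs searched, the AP-1 letters TGANTCA were in 4.61% of all promoters and in 0 of the called identity genes. They were in 33.3% (8 of 24) of interferon-stimulated genes tested and in 50.0% (6 of 12) of those called higher in CD11b+ DCs. Among genes over 5-fold higher in CD103+ DCs they were in 10.7% (9 of 84), against 4.34% (49 of 1129) of all genes called higher there. The ETS and IRF composite letters (GGAA and GAAA 2 bases apart) were in 2.12% of all promoters and in 1 of 15 cDC1 and 1 of 12 cDC2 genes. The PU.1 letters (GAGGA then AGT) were in 2.62% and in 2 of 15 and 0 of 12. These matches describe the letters and do not show binding.

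Of 19776 genes tested, 2371 were higher in CD11b+ DCs (12% of all tested) and 1682 were higher in CD103+ DCs (8.51%), 4053 in all (20.5%). The sizes were unequal: the median log2 fold change was 2.86 among genes higher in CD11b+ DCs and -0.89 among genes higher in CD103+ DCs. At an adjusted p under 0.01 and a fold change over 5, 291 genes were higher in CD11b+ DCs (1.47%) and 128 in CD103+ DCs (0.647%). The split depended on the fit, since with the summed level of stroma and endothelium markers as a term 295 and 285 genes were called, and of 220 called genes followed through the alternatives 80 kept their call in that fit. A total of 75 of the 220 kept it in every alternative in which they were tested, and a gene described below as stable is one of these. Counts for gene lists are to be read against the 12% and 8.51% of all genes.

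**Figure D1:**
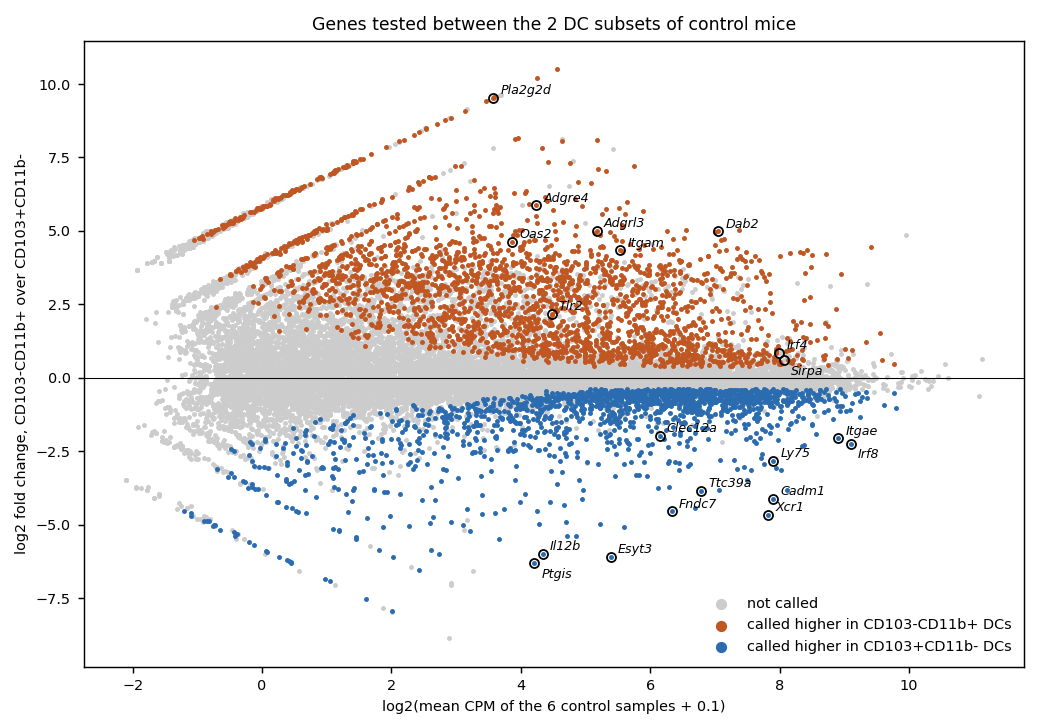
Each point is a gene tested, with log2 of its mean CPM over the 6 control samples (plus 0.1) on the horizontal axis and the log2 fold change of CD11b+ over CD103+ DCs on the vertical axis. Orange points are the 2371 genes called higher in CD11b+ DCs, blue points the 1682 called higher in CD103+ DCs, and circled genes are named. Orange points extend further from 0 than blue points; the straight lines of points at low level are genes at 0 in 1 subset.

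The cDC1 identity genes were called on one side alone. Of 24 genes, 19 were higher in CD103+ DCs and 0 in CD11b+ DCs (79.2% against 8.51% of all genes), with a median log2 fold change of -2.55. With the stroma and endothelium term 10 were called. This list holds Itgae, which the sort used. Cadm1, an adhesion molecule of cDC1s, was at 476, 491 and 386 CPM in CD103+ DCs and at 22.7, 37.8 and 17.9 CPM in CD11b+ DCs (log2 fold change -4.12 ± 0.24, adjusted p = 4.05e-06). Xcr1, the receptor for the T and NK cell chemokine XCL1, was at 482, 446 and 380.4 CPM against 17.9, 3.88 and 29.5 CPM (-4.65 ± 0.62, adjusted p = 0.000999). Clec9a, which senses actin exposed by dead cells, was at 427, 420.1 and 303 CPM against 50.3, 34.2 and 66.4 CPM (-2.92 ± 0.37, adjusted p = 0.000764). In each of the 3 genes every CD103+ sample lay several-fold above every CD11b+ sample. Ly75, the uptake receptor DEC-205 whose promoter is printed above, was at 425, 439.6 and 389 CPM against 66.7, 62 and 47.1 CPM (-2.83 ± 0.16, adjusted p = 3.97e-06). The orphan receptor gene Gpr141b was at 172, 215 and 205 CPM against 5.4, 3.55 and 18.7 CPM (-4.42 ± 0.53, adjusted p = 0.000499). Cadm1, Xcr1, Clec9a, Ly75, Gpr141b, Ppt1, Snx22, Tlr3, Tlr11 and Tlr12 were stable, whereas Itgae itself (-1.68, adjusted p = 0.117), Irf8, Batf3, Cd8a, Rab7b, Naaa and Btla lost their call with the stroma and endothelium term. Of the 24, 5 were not called: Wdfy4, needed for cross-presentation by cDC1s, had a log2 fold change of -0.60 (adjusted p = 0.0932), Ifi205 of -1.62 (0.0672), Gcsam of -1.29 (0.298), Plpp1 of -0.48 (0.602) and Cd24a of -0.33 (0.511). With a replicate block Wdfy4 and Ifi205 were called (adjusted p = 0.0268 and 0.0199).

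**Figure D2:**
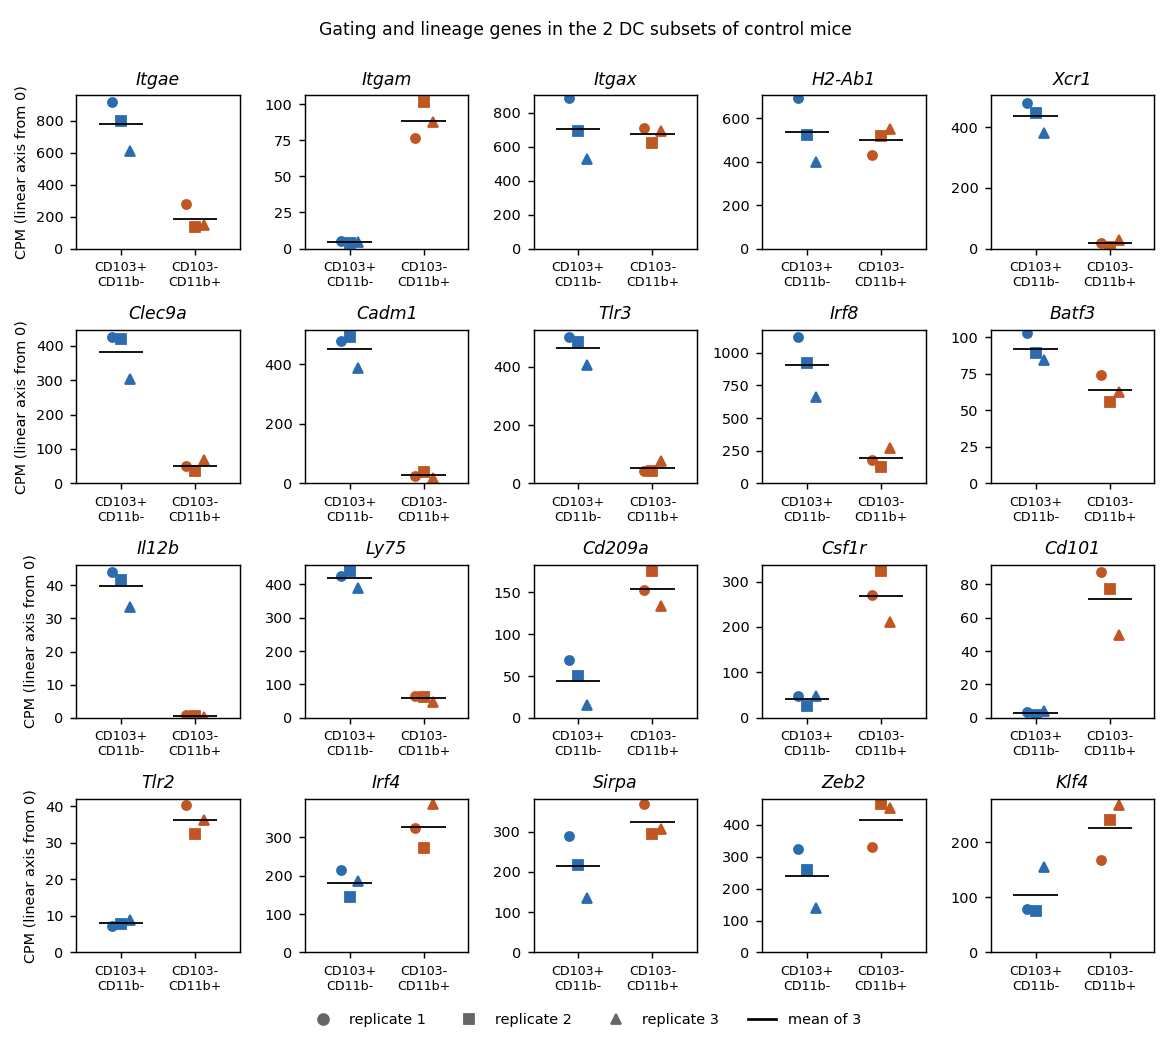
CPM of 20 gating and lineage genes in each control sample, on linear axes from 0, with CD103+CD11b- DCs in blue, CD103-CD11b+ DCs in orange, replicates 1 to 3 as circle, square and triangle, and the mean of 3 as a line. Xcr1, Clec9a, Cadm1, Tlr3, Ly75 and Il12b are high in the blue samples alone and Itgam, Cd101 and Tlr2 in the orange ones, while Itgax and H2-Ab1 overlap and the samples of Sirpa and Irf4 lie closer together.

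The cDC2 identity genes were more mixed. Of 28 genes, 14 were higher in CD11b+ DCs (50.0% against 12% of all genes), 1 was higher in CD103+ DCs and 13 were not called, with a median log2 fold change of 1.72. This list holds Itgam, which the sort used. The 14 were 7 without CD103+ replicate 2 and also 7 with the stroma and endothelium term. Cd101, an inhibitory surface protein of intestinal myeloid cells, was at 3.49, 1.86 and 4.16 CPM in CD103+ DCs and at 87.5, 77.2 and 49.7 CPM in CD11b+ DCs (log2 fold change 4.47 ± 0.46, adjusted p = 0.000203). Ccr2, a receptor for monocyte chemokines, was at 61.5, 57 and 34.1 CPM against 119.7, 148 and 127 CPM (1.38 ± 0.24, adjusted p = 0.00389). Cd300a, an inhibitory receptor, was at 125, 70.2 and 69.3 CPM against 315, 219 and 279 CPM (1.63 ± 0.30, adjusted p = 0.00581). These genes, Itgam, Clec4a1 and Tmem176a were stable. Csf1r, the receptor for CSF1, was at 48.6, 26 and 48.7 CPM against 271, 322 and 211 CPM (2.71 ± 0.59, adjusted p = 0.0112), and its value with the stroma and endothelium term was 1.76 (adjusted p = 0.208). The C-type lectin gene Cd209a was at 68.8, 49.5 and 14.9 CPM against 153, 175 and 134 CPM (1.81 ± 0.50, adjusted p = 0.0291), a call that was lost without CD103+ replicate 2 or CD11b+ replicate 2. The exception was Clec12a, an inhibitory lectin, at 113, 111 and 114 CPM in CD103+ DCs and 33.5, 30.0 and 22.7 CPM in CD11b+ DCs (-1.97 ± 0.17, adjusted p = 7.21e-05), which was stable.

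Several defining cDC2 genes did not pass the test in control mice. Irf4 was at 213, 143 and 186 CPM in CD103+ DCs and 324, 272 and 386 CPM in CD11b+ DCs, so the samples did not overlap, but the log2 fold change of 0.86 ± 0.30 had an adjusted p of 0.0623. It was called in 5 of 17 alternatives, the control samples alone, DESeq2 and a replicate block (adjusted p = 0.00942) among them. Sirpa, the signal-regulatory receptor used to define cDC2s, was at 289.6, 218 and 136 CPM against 368, 294 and 307 CPM (0.60 ± 0.49, adjusted p = 0.416). Zeb2, a repressor that acts early in the cDC2 branch, was at 325, 258 and 141 CPM against 331, 464 and 451 CPM (0.79 ± 0.36, adjusted p = 0.141). In these genes the CD103+ libraries thus held substantial levels. Sirpa and Zeb2 were lowest there in replicate 3, as were the plasmacytoid DC markers described further on, and Irf4 was lowest in replicate 2. The part of plasmacytoid DC RNA in these levels was not tested. Klf4 had a log2 fold change of 1.12 (adjusted p = 0.121, and 0.00519 with a replicate block), Notch2 of -0.00 (0.994) and Clec10a of 0.32 (0.704). The pan-DC factor genes Zbtb46 and Spi1 were at -0.10 (adjusted p = 0.757) and -0.06 (0.875).

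Among 41 transcription factors of the DC lineage, 7 were higher in CD103+ DCs (17.1% against 8.51% of all genes) and 5 in CD11b+ DCs (12.2% against 12%). The 7 and 5 were 3 and 2 without CD103+ replicate 1 or replicate 2, 3 and 3 without CD11b+ replicate 2, 4 and 4 without CD11b+ replicate 3, and 1 and 1 with the stroma and endothelium term. Irf8, the factor on which cDC1s depend, was at 1126, 925 and 661 CPM in CD103+ DCs and 180.0, 123 and 269 CPM in CD11b+ DCs (log2 fold change -2.25 ± 0.36, adjusted p = 0.00238), and at -1.35 with the stroma and endothelium term (adjusted p = 0.0919). Mycl, a MYC relative that supports cDC1 growth, was at 353, 329 and 268 CPM against 95.6, 42.6 and 72.7 CPM (-2.16 ± 0.29, adjusted p = 0.000942) and was stable. Batf3, the other defining cDC1 factor, was at 103, 89.3 and 84.7 CPM against 74, 55.9 and 62.5 CPM (-0.52 ± 0.15, adjusted p = 0.0301), and kept its call in 7 of 17 alternatives. Id2, Bcl6, Rbpj and Runx2 were also higher in CD103+ DCs, with log2 fold changes from -0.71 to -0.99. Rbpj kept its call in 15 of 17 alternatives, Bcl6 in 9, Id2 in 7 and Runx2 in 5. The 5 factors higher in CD11b+ DCs were Prdm1 (3.42), Hlx (1.77), Cebpb (1.76), Cebpa (0.90) and Batf (0.85). Prdm1 and Hlx kept their call in 16 of 17 alternatives, Batf in 14, Cebpa in 10 and Cebpb in 9, and Cebpa and Cebpb both lost it without CD103+ replicate 1, CD103+ replicate 2 or CD11b+ replicate 2. Of the complex deleted in the cKO mice, Cbfb (-0.24, adjusted p = 0.42), Runx1 (0.13, 0.67) and Runx3 (0.20, 0.513) did not pass the test between the subsets.

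Of 17 Toll-like receptors and partner proteins tested, 6 were higher in CD103+ DCs (Tlr3, Tlr7, Tlr9, Tlr11, Tlr12 and Tlr13) and 2 in CD11b+ DCs (Tlr2 and Tlr4, of which Tlr4 lost its call without CD103+ replicate 1 or 2 and with the stroma and endothelium term). The 6 were 4 without CD103+ replicate 1, CD103+ replicate 2, CD11b+ replicate 2 or CD11b+ replicate 3, and 3 with the stroma and endothelium term. Tlr3, the receptor for double-stranded RNA, was at 504, 487 and 407 CPM in CD103+ DCs and at 40.5, 42.6 and 77.5 CPM in CD11b+ DCs (log2 fold change -3.12 ± 0.34, adjusted p = 0.000286). Tlr12, which with Tlr11 recognises profilin of protozoa, was at 373, 327 and 309 CPM against 46.6, 44.3 and 24.4 CPM (-3.12 ± 0.22, adjusted p = 1.79e-05). Tlr11 was at 348, 317 and 271 CPM against 55.5, 25.8 and 30.7 CPM (-3.05 ± 0.25, adjusted p = 5.25e-05). Tlr3, Tlr11 and Tlr12 thus moved by similar amounts and were stable. Tlr2, the receptor for lipoproteins, was at 7.34, 7.67 and 8.8 CPM against 40.3, 32.3 and 36.3 CPM (2.18 ± 0.18, adjusted p = 3.94e-05) and was stable too. Tlr7, which pDCs express strongly, was at 89.4, 83.7 and 21.3 CPM against 8.09, 12.3 and 5.11 CPM (-2.93 ± 0.63, adjusted p = 0.0108). It was lowest within CD103+ DCs in replicate 3, as were the pDC markers, and had an adjusted p of 0.186 with the stroma and endothelium term.

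Of 21 cytosolic sensors, 8 were higher in CD11b+ DCs (Nod1, Nod2, Nlrc4, Casp1, Casp4, Ddx58, Ifih1 and Cgas, 38.1% against 12% of all genes) and 2 in CD103+ DCs (Nlrp1b and Aim2). The 8 were 4 without CD103+ replicate 2 and 4 in females alone, and the 2 were 0 in 8 alternatives, among them those without CD103+ replicate 1 or 2 or CD11b+ replicate 2 or 3. The 2 were 4 without CD11b+ replicate 1 and 3 with a replicate block. Nlrp1b kept its call in 9 of 17 alternatives and Aim2 in 3. Ddx58, which encodes the RNA sensor RIG-I, was at 16.8, 13.7 and 23.5 CPM in CD103+ DCs and at 107, 161 and 116 CPM in CD11b+ DCs (log2 fold change 2.81 ± 0.25, adjusted p = 8.39e-05). Nod1, a sensor of bacterial cell wall fragments, was at 74.4, 40.7 and 51.1 CPM against 169, 136 and 153 CPM (1.47 ± 0.21, adjusted p = 0.00129). Nod2, a related sensor, was at 34.6, 37.7 and 34.2 CPM against 65.5, 57.5 and 80.9 CPM (0.94 ± 0.18, adjusted p = 0.00633). These 3 genes and Nlrc4 were stable.

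Of 34 interferon-stimulated genes, 15 were higher in CD11b+ DCs (44.1%), 4 were higher in CD103+ DCs and 15 were not called, with a list median of 0.87 against 0.01 over all genes. The 4 were 7 without CD103+ replicate 3. Oas2, an enzyme that makes the activator of RNase L, was at 0.699, 1.4 and 1.12 CPM in CD103+ DCs and at 35.7, 21.3 and 26.7 CPM in CD11b+ DCs (log2 fold change 4.62 ± 0.33, adjusted p = 1.94e-05). Gbp3, a guanylate-binding protein, was at 17.1, 15.1 and 15 CPM against 83.6, 123 and 74.4 CPM (2.57 ± 0.22, adjusted p = 5.27e-05). Oas1a was at 3.14, 2.79 and 3.04 CPM against 24.3, 16.2 and 12.5 CPM (2.56 ± 0.32, adjusted p = 0.000632). Within each of these genes the 3 CD103+ samples lay close together and below all CD11b+ samples. Oasl1 went the other way, at 42.3, 41.6 and 47.4 CPM against 6.94, 8.08 and 7.38 CPM (-2.55 ± 0.24, adjusted p = 0.000114), as did Mx1 (-1.01), Cxcl9 (-1.47) and Stat2 (-0.49), so members of the list moved in both directions. Oas1a, Oas2, Gbp3, Gbp7, Xaf1 and Oasl1 were stable. With the stroma and endothelium term 7 members were higher in CD11b+ DCs and 1 in CD103+ DCs. The receptor subunit genes Ifnar1 (-1.03, adjusted p = 0.00207) and Ifngr2 (-0.68, 0.0275) were higher in CD103+ DCs. Both lost their call with the stroma and endothelium term (adjusted p = 0.0924 and 0.647). Ifngr2 also lost it without CD103+ replicate 1 or 2 or CD11b+ replicate 2.

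**Figure D3:**
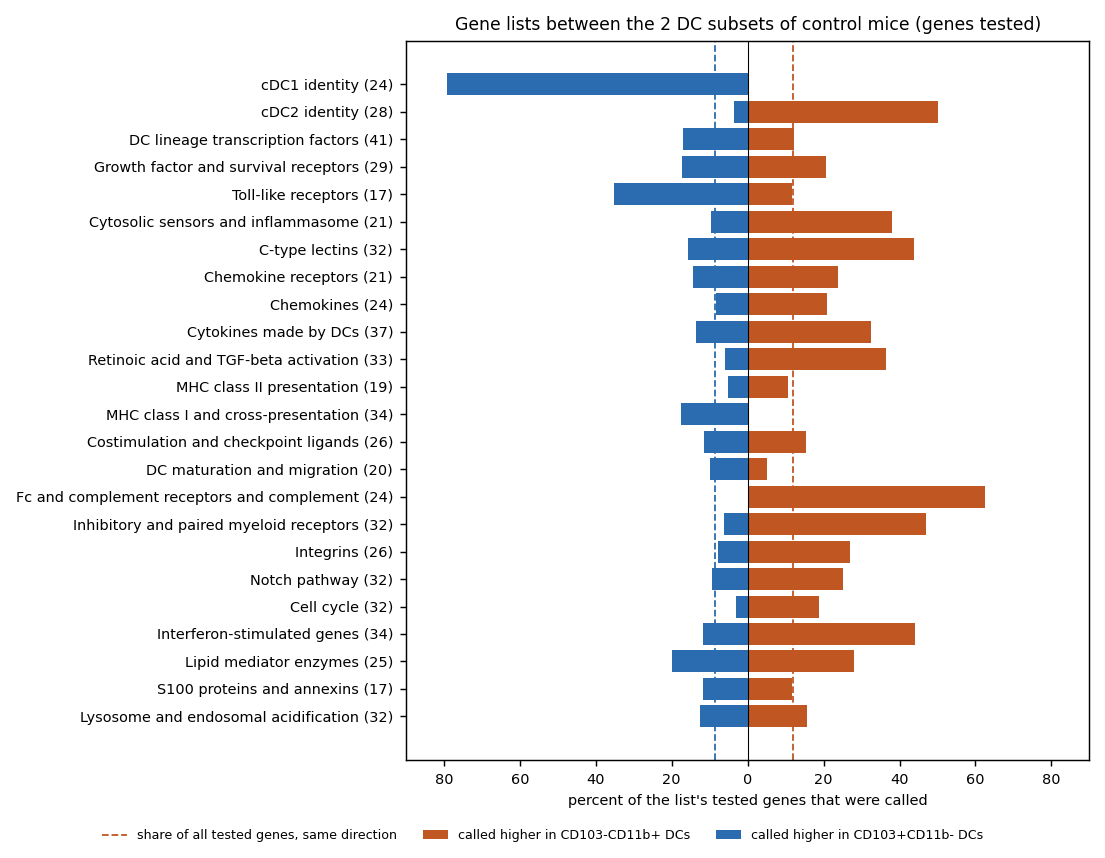
For each gene list, named at the left with its number of tested genes, bars give the percent of members called higher in CD103+CD11b- DCs (blue, to the left) and in CD103-CD11b+ DCs (orange, to the right). Dashed lines mark the same percent over all genes tested, 8.51 and 12. The cDC1 list lies on the left alone (79.2%) and the Fc and complement list on the right alone (62.5%).

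C-type lectins, which bind sugars of microbes and of dying cells, were called in both directions, 14 of 32 higher in CD11b+ DCs (43.8%) and 5 of 32 in CD103+ DCs (15.6%). Clec4a2, an inhibitory lectin, was at 3.49, 5.35 and 4.16 CPM in CD103+ DCs and at 27.6, 21 and 13.6 CPM in CD11b+ DCs (log2 fold change 2.24 ± 0.30, adjusted p = 0.00102). Cd209b, a relative of DC-SIGN, was at 0.349, 0 and 0.32 CPM against 19.5, 13.2 and 7.67 CPM (5.74 ± 0.72, adjusted p = 0.000702). Clec1a was higher in CD103+ DCs, at 314, 327 and 224 CPM against 44.7, 82.1 and 79.2 CPM (-2.07 ± 0.24, adjusted p = 0.000364). The CD103+ lectins thus were Clec1a, Clec1b, Clec9a, Clec12a and Ly75, and Clec1a, Clec4a2, Cd209b and Cd209c were stable. Without CD103+ replicate 3 and CD11b+ replicate 2 the counts were 7 and 6, without CD103+ replicate 2 alone 6 and 4, without CD103+ replicate 1 alone 8 and 4, and with the stroma and endothelium term 6 and 4.

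Receptors for antibody and complement stood on the CD11b+ side alone. Of 24 genes 15 were higher in CD11b+ DCs (62.5%), Itgam of the sort among them, and 0 in CD103+ DCs, with a median of 2.48. Fcgr2b, the inhibitory receptor for IgG, was at 10.8, 11.2 and 8.32 CPM in CD103+ DCs and at 39.5, 75 and 39.7 CPM in CD11b+ DCs (log2 fold change 2.35 ± 0.37, adjusted p = 0.00234). Fcgr3 was at 0.699, 2.56 and 2.08 CPM against 20.6, 39.4 and 14.2 CPM (3.71 ± 0.61, adjusted p = 0.00286). C1qc, a chain of complement C1q that macrophages make, was at 0.349, 0.93 and 0.32 CPM against 37.2, 51 and 14.2 CPM (5.93 ± 0.94, adjusted p = 0.00237). Their highest value was in CD11b+ replicate 2, the library with the highest sum of macrophage markers. With the stroma and endothelium term 2 of the 24 genes were called, without the libraries that stood apart 11 were, and without CD103+ replicate 2 or replicate 1 8 and 10 were.

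Inhibitory and paired receptors of myeloid cells followed the same direction, with 15 of 32 higher in CD11b+ DCs (46.9%) and 2 of 32 in CD103+ DCs (6.25%), Treml4 and Siglech. Pilrb2 was at 14, 10.9 and 9.6 CPM in CD103+ DCs and at 41.4, 28.1 and 18.5 CPM in CD11b+ DCs (log2 fold change 1.36 ± 0.31, adjusted p = 0.0135). Treml4, a receptor linked to TLR7 signalling, was at 63.2, 68.4 and 72.5 CPM against 32.4, 18.1 and 21.6 CPM (-1.49 ± 0.20, adjusted p = 0.000875) and was stable. The list's counts were 5 and 2 without the libraries that stood apart, 5 and 1 without CD103+ replicate 2, 7 and 4 without CD103+ replicate 3, 9 and 2 without CD11b+ replicate 1 and 4 and 1 with the stroma and endothelium term.

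Genes of MHC class II presentation separated the subsets little. H2-Ab1, a class II chain, was at 691, 521 and 399.8 CPM in CD103+ DCs and at 429.6, 517 and 552 CPM in CD11b+ DCs (log2 fold change -0.10 ± 0.30, adjusted p = 0.84), and Cd74, the invariant chain, had a log2 fold change of -0.02 ± 0.33 (adjusted p = 0.977). Of 19 genes, Ctsd (1.36) and Lgmn (1.20), which encode lysosomal proteases, were higher in CD11b+ DCs, with 34.4% of the Ctsd exon length shared with Gm49369. March1, a ligase that removes class II from the surface, was higher in CD103+ DCs (-0.79). The 2 class II genes higher in CD11b+ DCs were 0 without CD103+ replicate 2 and 1 without CD103+ replicate 1 or 3 or CD11b+ replicate 2 or 3, and Lgmn kept its call in 9 of 17 alternatives. Of 34 genes of MHC class I and cross-presentation, 6 were higher in CD103+ DCs (17.6% against 8.51%) and 0 in CD11b+ DCs. The 6 were 2 without CD103+ replicate 1 or replicate 2, 3 without CD11b+ replicate 3 and 4 without CD11b+ replicate 2, but 8 without CD103+ replicate 3 and 12 with a replicate block. Tap1, a chain of the peptide transporter, was at 654, 539 and 432 CPM against 366, 304 and 309 CPM (-0.73 ± 0.18, adjusted p = 0.0185). Psmb9, an immunoproteasome subunit, was at 232, 201 and 167 CPM against 125, 103 and 117 CPM (-0.80 ± 0.17, adjusted p = 0.0106). Tap2 (-0.58), Tapbpl (-0.73), Nlrc5 and Rab43 (-1.01) completed the group, with 75.4% of the Rab43 exon length shared with Gm45140. No gene of either list kept its call with the stroma and endothelium term, where Tap1 was at -0.26 and Psmb9 at -0.29, whereas B2m had a log2 fold change of 0.03 in the fit without that term (adjusted p = 0.967).

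Of costimulation and of maturation genes, 4 of 26 (15.4%) and 1 of 20 (5.0%) were higher in CD11b+ DCs and 3 of 26 (11.5%) and 2 of 20 (10%) in CD103+ DCs, against 12% and 8.51% of all genes. The costimulation counts were 2 and 1 without CD103+ replicate 1 or CD11b+ replicate 2, 3 and 1 without CD103+ replicate 2, 5 and 5 without CD11b+ replicate 1, and 1 and 0 with the stroma and endothelium term. The maturation count in CD11b+ DCs was 1 without CD11b+ replicate 1 and 0 when any other control library was left out. That in CD103+ DCs was 1 without CD103+ replicate 1 or 2 or CD11b+ replicate 1 and 3 without CD11b+ replicate 3. In females alone and with a replicate block it was 4. Serpinb6b, a granzyme inhibitor, was at 304, 288 and 234 CPM in CD103+ DCs and at 40.9, 34.9 and 42 CPM in CD11b+ DCs (log2 fold change -2.80 ± 0.25, adjusted p = 7.67e-05) and was stable. Lgals9, which encodes galectin-9, was at 54.8, 36 and 35.5 CPM against 101, 134 and 109 CPM (1.45 ± 0.21, adjusted p = 0.00161). Pdcd1lg2, which encodes the PD-1 ligand PD-L2, was at 27.9, 37.9 and 13.1 CPM against 11.4, 7.11 and 5.39 CPM (-1.69 ± 0.49, adjusted p = 0.0337), and lost its call without CD103+ replicate 1 or 2 or CD11b+ replicate 2 or 3.

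Among 37 cytokine genes, 12 were higher in CD11b+ DCs (32.4% against 12% of all genes) and 5 in CD103+ DCs (13.5% against 8.51%). These counts were 3 and 2 without CD103+ replicate 2, 6 and 4 without CD103+ replicate 1, 7 and 3 without CD11b+ replicate 2, 10 and 3 without CD11b+ replicate 3, and 1 and 1 with the stroma and endothelium term. Il12b, the shared chain of IL-12 and IL-23, was at 44, 41.6 and 33.3 CPM in CD103+ DCs and at 0.771, 0.646 and 0.284 CPM in CD11b+ DCs (log2 fold change -6.00 ± 0.51, adjusted p = 5.27e-05), and was stable. In CD11b+ DCs these levels were near or below that of 3 counts in a library. Lif was at 37.7, 42.3 and 82.6 CPM against 2.31, 7.11 and 5.68 CPM (-3.48 ± 0.72, adjusted p = 0.00914), and Il15, which sustains CD8 T and NK cells, had a log2 fold change of -0.94 (adjusted p = 0.0275). Lif lost its call with the stroma and endothelium term (adjusted p = 0.0685), and Il15 kept its call in 10 of 17 alternatives. Il1rn, the IL-1 receptor antagonist, was at 33.9, 21.2 and 22.1 CPM against 72.7, 82.7 and 77.8 CPM (1.6 ± 0.36, adjusted p = 0.012). Tnfsf8, the CD30 ligand, was at 3.49, 6.51 and 5.44 CPM against 31.4, 22.3 and 13.9 CPM (2.11 ± 0.31, adjusted p = 0.00172) and was stable. Tnfsf9 (2.62), Tnfsf10 (3.65) and Flt3l (1.04) were also higher in CD11b+ DCs, and Tnfsf10 was at 1.27 with the stroma and endothelium term (adjusted p = 0.366).

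Chemokines and their receptors were called in both directions. Ccl2, a monocyte attractant, was at 1.05, 0.465 and 0 CPM in CD103+ DCs and at 11.9, 21 and 36.9 CPM in CD11b+ DCs (log2 fold change 5.73 ± 0.81, adjusted p = 0.00132). Ccl9 was at 0.349, 0 and 0.16 CPM against 11.9, 78.8 and 57.3 CPM (8.08 ± 1.24, adjusted p = 0.00207). Cxcr3, the receptor for CXCL9 and CXCL10, was at 61.5, 66.5 and 46.6 CPM against 4.82, 6.79 and 0.568 CPM (-3.83 ± 0.57, adjusted p = 0.00178). These 3 genes were stable. Cxcl9 itself was at 177, 168 and 187 CPM against 79, 48.8 and 63.3 CPM (-1.47 ± 0.25, adjusted p = 0.00328), so ligand and receptor were both higher in CD103+ DCs. Ccr9, a gut homing receptor that pDCs also carry, was at 521, 440.1 and 272 CPM against 135, 72.4 and 75.5 CPM (-2.12 ± 0.38, adjusted p = 0.00486). In all, 5 of 24 chemokines (20.8%) and 5 of 21 receptors (23.8%) were higher in CD11b+ DCs and 2 of 24 (8.33%) and 3 of 21 (14.3%) in CD103+ DCs. Without CD103+ replicate 2 the CD11b+ counts were 3 and 2, without CD103+ replicate 1 or CD11b+ replicate 2 they were 3 and 3, and with the stroma and endothelium term 2 and 1. The 2 chemokines higher in CD103+ DCs were 1 when any control library but CD11b+ replicate 1 was left out and 0 with that term.

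Growth factor receptors were called in both directions, with Flt3, the receptor for the DC growth factor FLT3 ligand, at 559, 492 and 384 CPM in CD103+ DCs and 353, 213 and 286 CPM in CD11b+ DCs (log2 fold change -0.75 ± 0.19, adjusted p = 0.0226). Flt3 kept its call in 11 of 17 alternatives and lost it without CD103+ replicate 1 or 2 or CD11b+ replicate 2 or 3. Csf3r, the receptor for G-CSF, was at 5.59, 1.86 and 3.84 CPM against 41.6, 38.1 and 35.5 CPM (3.38 ± 0.33, adjusted p = 0.000137) and was stable. Of 29 such genes 6 were higher in CD11b+ DCs and 5 in CD103+ DCs, counts that were 3 and 1 without CD103+ replicate 2, 5 and 1 without CD103+ replicate 1, 8 and 8 without CD103+ replicate 3, 5 and 2 without CD11b+ replicate 2, 6 and 2 without CD11b+ replicate 3, and 1 and 0 with the stroma and endothelium term.

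For retinoic acid, which gut DCs make from vitamin A and which imprints gut homing on T cells, genes of the same steps were called in both directions. Aldh1a2, the retinal dehydrogenase of intestinal DCs, was at 197, 197 and 115 CPM in CD103+ DCs and at 63.2, 54.6 and 38.6 CPM in CD11b+ DCs (log2 fold change -1.70 ± 0.25, adjusted p = 0.00165). Its relative Aldh1a1 was at 0.349, 0.697 and 0.96 CPM against 17, 23.3 and 14.5 CPM (4.61 ± 0.96, adjusted p = 0.00954). Dhrs9, which oxidises retinol, was at 30.0, 40.7 and 46.9 CPM against 6.94, 5.17 and 6.25 CPM (-2.67 ± 0.23, adjusted p = 7.14e-05). Dhrs3, which reduces retinal back to retinol, went the opposite way, at 20.3, 18.8 and 25.6 CPM against 82.7, 121 and 71.8 CPM (2.08 ± 0.24, adjusted p = 0.000371). Dhrs9 and Dhrs3 were stable, while Aldh1a2 and Aldh1a1 had adjusted p-values of 0.0556 and 0.212 with the stroma and endothelium term. Of 33 genes of retinoic acid and TGF-β activation, 12 were higher in CD11b+ DCs (36.4% against 12% of all genes), among them the TGF-β feedback inhibitor genes Smad7 (0.85) and Ski (0.94), and 2 in CD103+ DCs (6.06% against 8.51%). With the stroma and endothelium term 1 and 1 were called, and Smad7 and Ski had adjusted p-values of 0.0652 and 0.154.

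Enzymes and receptors of lipid mediators were called in both directions, with wide fold changes. Ptgis, the prostacyclin synthase, was at 30.0, 38.8 and 40.0 CPM in CD103+ DCs and at 0.385, 0.323 and 0.568 CPM in CD11b+ DCs (log2 fold change -6.32 ± 0.44, adjusted p = 1.68e-05). Ptger2, a prostaglandin E2 receptor, was at 38.1, 37.4 and 38.1 CPM against 6.55, 13.9 and 8.23 CPM (-2.0 ± 0.38, adjusted p = 0.00612). Pla2g2d, a secreted phospholipase, had 0 counts in all 3 CD103+ libraries and was at 15.2, 31.3 and 24.1 CPM in CD11b+ DCs, at least 98.8-fold higher against a limit of 3 counts over the CD103+ group. Pla2g4a, the phospholipase that releases arachidonic acid, was at 12.6, 17.9 and 10.4 CPM against 48.6, 39.4 and 31.2 CPM (1.55 ± 0.23, adjusted p = 0.00165). All 4 genes were stable, as was Ltc4s (-1.41). Alox5, which starts leukotriene synthesis, was at 6.29, 2.09 and 0.8 CPM against 75.7, 58.2 and 33.8 CPM (4.31 ± 0.83, adjusted p = 0.00674). Of 25 genes 7 were higher in CD11b+ DCs and 5 in CD103+ DCs, 5 and 3 without CD103+ replicate 1 or 2, and 3 and 3 with the stroma and endothelium term.

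Genes of the Notch pathway, which cDC2s depend on, were called in both directions. Maml3, a coactivator of Notch, was at 27.2, 19.5 and 25.1 CPM in CD103+ DCs and at 99.4, 106 and 91.7 CPM in CD11b+ DCs (log2 fold change 2.05 ± 0.15, adjusted p = 2.6e-05) and was stable. Psen2, a γ-secretase subunit, was at 62.9, 77 and 66.7 CPM against 37, 35.5 and 26.4 CPM (-1.06 ± 0.16, adjusted p = 0.00168). The 8 of 32 Notch genes higher in CD11b+ DCs (25.0%) included Dll4 (2.56), Notch4 (1.85) and Hes1 (1.90), whose values with the stroma and endothelium term were 0.38, 0.55 and 0.98. The 8 were 2 without CD103+ replicate 2, 3 without CD103+ replicate 1, 4 without CD11b+ replicate 2, 5 without CD11b+ replicate 3, 13 without CD11b+ replicate 1 and 1 with that term, and 3 of 32 were higher in CD103+ DCs. Gusb, a lysosomal glucuronidase, was at 334, 296 and 254 CPM against 126, 102 and 113 CPM (-1.37 ± 0.14, adjusted p = 0.000218). Lysosome genes were called on both sides, 5 of 32 higher in CD11b+ DCs and 4 of 32 in CD103+ DCs, and the 5 were 0 to 3 when any 1 control library was left out, while the 4 were 2 without CD103+ replicate 1 or 2 or CD11b+ replicate 2 or 3. With the stroma and endothelium term these counts were 0 and 1. The replication genes Mcm3, Mcm6, Mcm7 and Rrm1 were among 6 of 32 cell cycle genes higher in CD11b+ DCs (18.8% against 12% of all genes), by 0.74 to 1.06 on the log2 scale, and the 6 were 0 without CD103+ replicate 1, CD103+ replicate 2, CD11b+ replicate 1 or CD11b+ replicate 3, in the control samples alone, in females alone and with the stroma and endothelium term. They were 4 without CD103+ replicate 3, 10 without CD11b+ replicate 2 and 12 without both of these. Of 26 integrins 7 (26.9%) were higher in CD11b+ DCs (3 without CD103+ replicate 1 or 2, 4 without CD11b+ replicate 2) and 2 (7.69%) in CD103+ DCs, with Itgam and Itgae of the sort among them. The 2 were 4 without CD103+ replicate 3, and with the stroma and endothelium term 2 and 0 were called. Of 17 S100 proteins and annexins 2 and 2 were called, 1 and 1 without CD103+ replicate 2 and 3 and 1 without CD103+ replicate 1, with S100a10 (2.20) stable.

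The protein-coding genes with the smallest p-values included many outside the marker lists. Ttc39a was at 202, 229.7 and 188 CPM in CD103+ DCs and at 17, 9.37 and 16.2 CPM in CD11b+ DCs (log2 fold change -3.85 ± 0.20, adjusted p = 3.97e-06). Fndc7 was at 140.1, 167 and 156 CPM against 7.71, 5.49 and 6.25 CPM (-4.55 ± 0.24, adjusted p = 3.97e-06). Esyt3, which tethers the endoplasmic reticulum to the plasma membrane, was at 59.4, 92.8 and 95.1 CPM against 1.16, 0.646 and 1.7 CPM (-6.09 ± 0.34, adjusted p = 3.97e-06). These genes, with Slc25a26, Lrrc1, Slc9a9, Med12l and Alms1, separated the subsets with little spread within either. On the CD11b+ side the smallest p-value was that of Adgrl3, a latrophilin adhesion receptor, at 1.75, 2.09 and 2.4 CPM against 58.6, 88.2 and 62.7 CPM (5.01 ± 0.28, adjusted p = 3.97e-06). Adgre4, an adhesion receptor related to F4/80, was at 0.699, 0.465 and 0.64 CPM against 37.8, 48.1 and 24.7 CPM (5.87 ± 0.40, adjusted p = 1.58e-05). Dab2, an endocytic adaptor, was at 9.08, 5.11 and 9.92 CPM against 250.3, 319 and 202 CPM (4.99 ± 0.41, adjusted p = 4.51e-05), and Rin2 and Arhgef18 (1.90 and 2.64) also belonged to this set. All the genes of this paragraph were stable.

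Genes with the widest fold changes were low in one subset. Retnla, a product of alternatively activated macrophages, had 0 counts in every CD103+ library and was at 23.1, 84.3 and 32.6 CPM in CD11b+ DCs, at least 188-fold higher against 3 counts over the CD103+ group, and its call was lost without any of 5 of the 6 control libraries, CD11b+ replicate 1 being the exception. Fcrls, also at 0 counts in CD103+ DCs, was at 15.4, 80.5 and 18.2 CPM in CD11b+ DCs, at least 149-fold higher. Mrc1, the macrophage mannose receptor, was at 0.349, 0.233 and 0.16 CPM against 18.9, 91.4 and 16.2 CPM (log2 fold change 7.34 ± 1.46, adjusted p = 0.00783). In all 3 genes CD11b+ replicate 2 was the highest sample. Kcna1 was at 0, 0.233 and 0 CPM against 32, 51 and 6.53 CPM, and Chrm2, a muscarinic receptor, at 0.699, 0 and 0.16 CPM against 34.7, 179 and 1.99 CPM. Kcna1 lost its call without CD103+ replicate 2, and Chrm2 without any 1 of the CD103+ libraries or CD11b+ replicate 2. Both lost it with the stroma and endothelium term (adjusted p = 0.163 and 0.388). On the CD103+ side Gpr33 was at 84.9, 107 and 89.1 CPM against 2.12, 0.323 and 5.68 CPM (-5.09 ± 0.67, adjusted p = 0.000887) and was stable. Olfr164 (109, 85.8 and 22.9 CPM), Grm8 (68.1, 67.7 and 17.9 CPM) and Dntt (53.1, 44.2 and 15 CPM), by contrast, were lowest among CD103+ DCs in replicate 3. Fcrls, Mrc1, Olfr164 and Grm8 kept their call when any 1 control library was left out and lost it with the stroma and endothelium term (adjusted p from 0.106 to 0.154).

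Markers of other cell types differed between the subsets. The summed level of 18 stroma and endothelium markers was 408.4, 276.4 and 1406 CPM in CD103+ DCs and 2399, 6761 and 4728 CPM in CD11b+ DCs, without overlap, and 6 of the 18 were called higher in CD11b+ DCs and 0 in CD103+ DCs, a count that ran from 2 without CD103+ replicate 2 to 12 without CD103+ replicate 3. Vwf, an endothelial coagulation protein, was at 48.2, 20.9 and 165 CPM against 497, 1296 and 948 CPM, and Kdr, the VEGF receptor, at 31.1, 16.3 and 50.7 CPM against 467, 1215 and 184 CPM. The CD45+ gate should leave out cells of both kinds. Because this level and the subset moved together, their parts in a gene's difference cannot be told apart in these samples. The sum over 16 macrophage and monocyte markers was 119.6 to 125.8 CPM in CD103+ DCs and 414.7, 802.9 and 279.9 CPM in CD11b+ DCs, with 9 of 16 higher there, 5 without CD103+ replicate 1 or 2, 6 without CD11b+ replicate 2 and 1 with the stroma and endothelium term, and with Ly6c2 (-1.85) higher in CD103+ DCs. Fcgr1, which encodes the CD64 that the gate excluded, was at 0.349, 0 and 0.48 CPM against 5.97, 11.3 and 4.83 CPM. Its part in the Fc receptor, complement and lectin results was not tested. Fewer cells of a type and less RNA in each cell cannot be told apart in bulk samples.

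The 14 plasmacytoid DC (pDC) markers moved the other way, summing to 3215, 2744 and 1274 CPM in CD103+ DCs and 1226, 1266 and 983.2 CPM in CD11b+ DCs, with 8 of 14 higher in CD103+ DCs. Siglech was at 474, 364 and 158 CPM against 46.4, 13.9 and 28.1 CPM, and Ly6d at 102, 86.7 and 38.6 CPM against 14.6, 9.05 and 13.9 CPM. Replicate 3 held the lowest value among CD103+ DCs for both genes, and the 8 were 2 without CD103+ replicate 1 or replicate 2, 3 without CD11b+ replicate 2 or replicate 3, 10 without CD103+ replicate 3, 9 without both libraries that stood apart and 0 with the stroma and endothelium term. The part of pDC RNA in Irf8, Tlr7, Il7r, Ccr9 and Runx2, which pDCs express too, was not tested, nor was its part in Sirpa and Zeb2. T cell and ILC markers summed to 412.6, 337.1 and 199.9 CPM against 116, 274.3 and 106.5 CPM, with Cd3e at 2.45, 0.233 and 13.9 CPM in CD103+ DCs while Cd8a there was at 218, 177 and 126 CPM. Epithelial markers summed to 137.6 to 295.2 CPM in CD103+ DCs and 348 to 468.5 CPM in CD11b+ DCs, without overlap, with 4 of 13 higher there (30.8% against 12% of all genes, and 1 without CD103+ replicate 1 or 2). Plasma cell markers summed to 1080 to 1280 CPM against 1547 to 2461 CPM, also without overlap. Of B cell markers 2 of 15 were called in each direction (13.3%), of plasma cell markers 1 of 12 (8.33%) and of granulocyte and mast cell markers 1 of 9 (11.1%, Csf3r) higher in CD11b+ DCs.

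**Figure D4:**
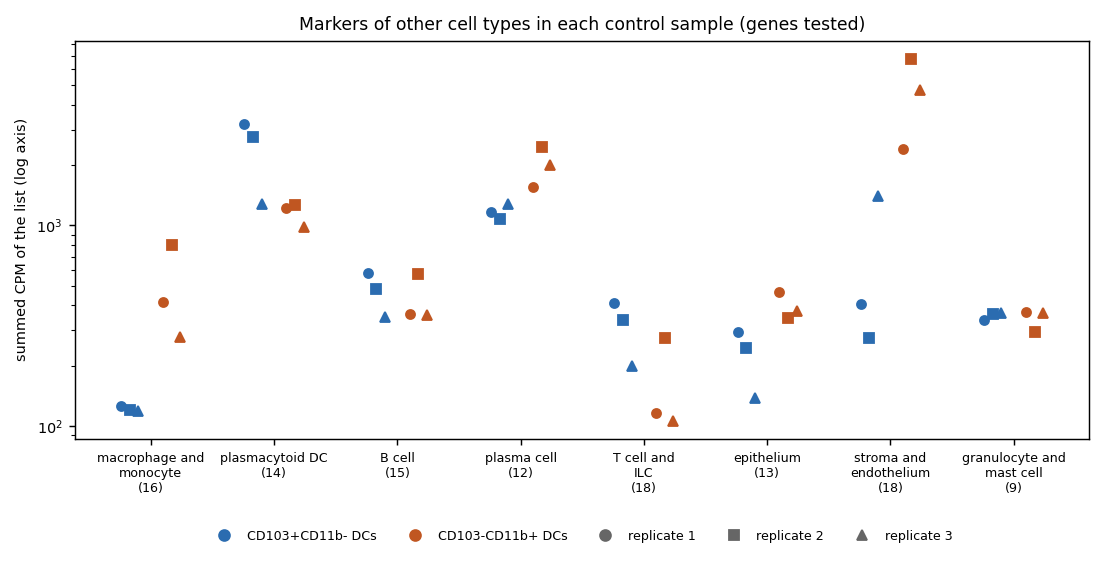
Summed CPM of marker lists of 8 other cell types (number of tested genes in parentheses) in each control sample, on a log axis, with CD103+CD11b- DCs in blue, CD103-CD11b+ DCs in orange and replicates 1 to 3 as circle, square and triangle. Stroma and endothelium and macrophage sums are higher in every orange sample than in any blue one, and pDC sums higher in every blue sample.

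The same contrast in cKO mice shares no sample with that in control mice. There 3341 genes were called (16.9%), 1767 higher in CD11b+ DCs and 1574 in CD103+ DCs. Of the genes called in control mice, 870 were also called higher in CD11b+ DCs of cKO mice (36.7% of the control list, 49.2% of the cKO list) and 954 in CD103+ DCs (56.7% and 60.6%), 13 were called in the opposite direction, and 3791 of 4053 (93.5%) had the same sign. The test of the difference between genotypes passed an adjusted p of 0.05 for 131 genes (0.662%), 70 of which were called in control mice. Cadm1 (-4.12 in control and -4.65 in cKO mice), Xcr1 (-4.65 and -3.80), Tlr3 (-3.12 and -3.14), Ly75 (-2.83 and -2.59) and Itgam (4.34 and 4.28) had like values in both, each with an adjusted p of the difference of 0.582 or more. Sirpa, not called in control mice, had a log2 fold change of 4.04 in cKO mice (adjusted p = 0.000616), Irf4 of 2.63 (0.000261) and Zeb2 of 2.88 (0.000521), but the difference between genotypes had adjusted p-values of 0.0677, 0.112 and 0.124. Clec4a4, also not called in control mice (0.94), was at 6.94 in cKO mice, with an adjusted p of the difference of 0.00756. Of the cDC1 list 0 genes and of the cDC2 list 3 genes passed the test of the difference, as did 8 of 32 paired receptors, among them Trem1 (1.11 in control mice, adjusted p of the difference = 0.00756), which had 0 counts in all 3 CD103+ libraries of cKO mice. Of the 14 pDC markers, 8 were called higher in CD103+ DCs of control mice. In cKO mice 1 was, and 1 was higher in CD11b+ DCs. None of the 14 passed the test of the difference.

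**Figure D5:**
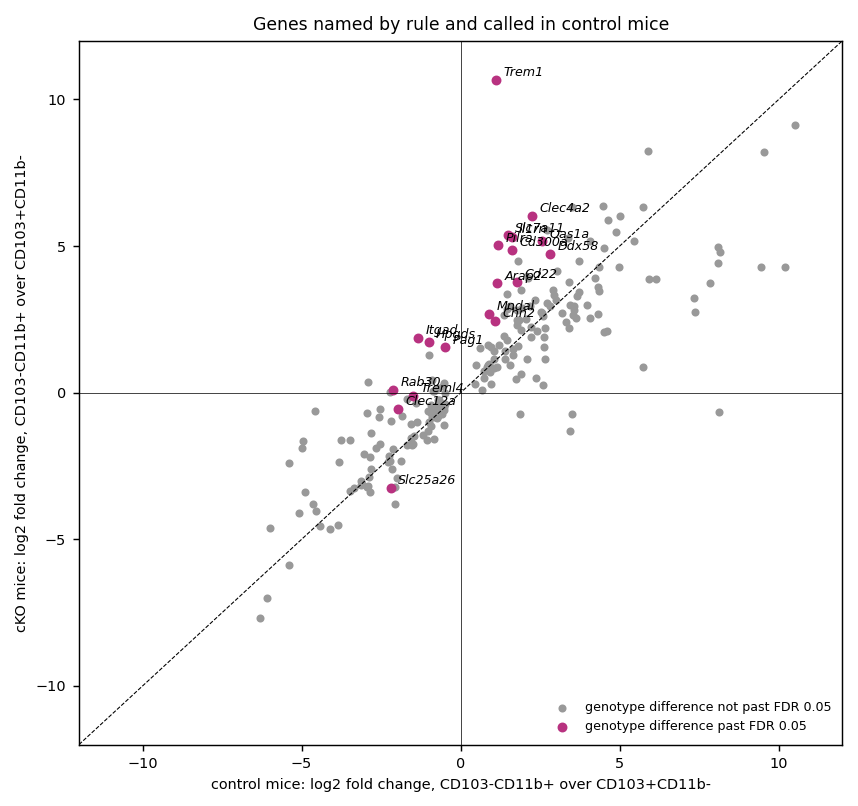
Log2 fold change of CD103-CD11b+ over CD103+CD11b- DCs in control mice (horizontal) and in cKO mice (vertical) for 227 genes named by rule and called in control mice, with the diagonal dashed. Of these, 19 with a genotype difference past an adjusted p of 0.05 are coloured and named, and 17 of the 227 lie on opposite sides of 0 in the 2 genotypes.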

How the data were processed

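DCs of the gut were sorted into lysis buffer and their total RNA was made into libraries by a bulk form of RamDA-seq, from small numbers of cells. Per the labels and the study's methods, the authors removed adapters (Trim Galore), aligned reads to mm10 (GRCm38) with STAR 2.7, removed duplicates and reads of low mapping quality, and counted unstranded reads per gene with HTSeq; the deposited values are raw counts per gene, 1 file a sample, with base calls from CASAVA 1.8. The 5 summary lines were left out of library sizes (61.3 to 66.6% of counted reads in control samples).

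Genes that reached 5 counts in any control sample were tested (19776 of 53801) with edgeR 4.0.16 (R 4.3.3): TMM scaling, a 4-group quasi-likelihood model of all 12 samples, contrasts for each genotype and their difference, and Benjamini-Hochberg adjustment over all genes tested. The script was tested on simulated data. Of the gene IDs, 99.8% matched GENCODE M21, from which names, overlaps and positions were taken. Names were drawn from the genes of the sort and gate, the 10 protein-coding genes of smallest p and the 10 of largest fold change (20 CPM or more) in each direction, up to 5 called members of each list in each direction, all members of the cDC1, cDC2 and transcription factor lists, and genes that differed between genotypes, not all of which are printed; Cd3e and other list members given outside this rule were named after their values were seen. Members and lists were chosen with earlier results of these data known. P-values measure the spread between samples within groups, estimated jointly over the 4 groups and moderated across genes. The cKO samples thus enter the p-values of the control contrast. Alternatives were RLE scaling, DESeq2 1.42.0, other count filters, control samples alone, a replicate block, each library left out, other limits and, chosen after seeing the data, fits without the libraries that stood apart, with females alone, and with sex or the stroma and endothelium level as a term.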

Additional observations from a re-analysis of the deposited data

Results flagged for a closer look

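For 20 named genes the subset difference itself differed between control and cKO mice in the test of the difference (edgeR, adjusted p from 0.00388 to 0.0496), and the values below are log2 units of the control difference minus the cKO difference. Receptor genes with a wider CD11b+ excess in cKO mice were Trem1 (-9.56), Clec4a4 (-5.99), Pilra (-3.86), Clec4a2 (-3.78), Cd300a (-3.25) and Cd22 (-2.01). The same held for Slc7a11 (-3.88), a cystine transporter, for Il1rn (-3.71), and for Arap2 (-2.58), Mndal (-1.79) and Chn2 (-1.36). Of interferon-linked genes, Oas1a (-2.61) and Ddx58 (-1.93) were flagged.

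Genes higher in CD103+ DCs of control mice but not so in cKO mice included Itgad (-3.2; log2 fold change -1.33 in control and 1.87 in cKO mice), Hpgds (-2.73; -1.0 and 1.73) and Pag1 (-2.04; -0.49 and 1.54), which had opposite signs. In control mice Pag1 kept its call in 5 of 17 alternatives and Hpgds in 11, lost without CD103+ replicate 1 or 2 or CD11b+ replicate 2 or 3 for both. Rab30 (-2.2), Clec12a (-1.42) and Treml4 (-1.38) lay at -2.11, -1.97 and -1.49 in control mice and at 0.09, -0.54 and -0.11 in cKO mice. Slc25a26 (1.05) was the gene with the wider CD103+ excess in cKO mice, at -2.19 against -3.25. Of the Itgad exon length 19.7% overlaps other gene models. Trem1 had 0 counts in all 3 CD103+ libraries of cKO mice, so its fitted value depends on the prior count and bounds nothing, and no cause was tested for any of these genes. Of 14 pDC markers, 8 were higher in CD103+ DCs of control mice and 1 in those of cKO mice. The part of pDC RNA in these genotype differences was not tested.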

How the results depend on the processing

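Counts of genes called higher in CD11b+ and in CD103+ DCs (2371 and 1682) and over 5-fold (291 and 128), and of genes with a genotype difference (131), moved as follows. With the stroma and endothelium level as a term the first 4 counts were 295, 285, 52 and 70 (264 of the 295 and 273 of the 285 shared with those reported). DESeq2 gave 1115 over 5-fold in CD11b+ DCs and 507 genotype differences, a filter of 1 count gave 475 over 5-fold in CD11b+ DCs, and 5 counts in every sample gave 1557 in CD11b+ DCs and 70 over 5-fold in CD103+ DCs. The 6 control samples alone gave 1001 in CD103+ DCs, and 77 and 68 over 5-fold. Females alone gave 1054 in CD103+ DCs, 84 over 5-fold there and 74 genotype differences. Without CD103+ replicate 3 and CD11b+ replicate 2 there were 923 in CD103+ DCs and 79 genotype differences. An adjusted p under 0.01 gave 580 and 631, and a fold change over 2 gave 748 in CD103+ DCs. RLE scaling gave 2593 and 1344, a higher share in CD11b+ DCs.

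Leaving out each control library gave 713 to 2492, 764 to 1732, 53 to 519, 74 to 148 and 35 to 215. The lowest came without CD103+ replicate 2 (713, 764, 53 and 74) or replicate 1 (35), and the highest over 5-fold without CD103+ replicate 3; without CD11b+ replicate 2 the first counts were 1225 and 1055, without CD103+ replicate 1 they were 907 and 926, and without CD11b+ replicate 3 the second was 1096. Without CD11b+ replicate 1 there were 215 genotype differences. The cause of these shifts was not tested.

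Of 220 called genes followed through the alternatives, 138 kept their call when each control library was left out, 80 with the stroma and endothelium term and 75 in every alternative that tested them; no gene was called in the opposite direction in any alternative run. Of these called genes Cdh5 alone changed sign, to -0.49 with that term (adjusted p = 0.703).

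Replicate numbers were not taken as pairs: correlations of same-numbered deviations were 0.365, -0.0886 and 0.354 in control and 0.12, 0.351 and 0.371 in cKO mice, every CD103+ sample but control replicate 2 (best with number 1) correlated best with its own number, and equal numbers had equal sex in all 6 pairs, a hint from the data only. A replicate block gave 3218 and 2240 genes, 817 and 159 over 5-fold, and 322 genotype differences.

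Depth limits low genes: 3 counts are 0.48 to 1.05 CPM in a library, and these limits cover counting error only.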
